A study of Homo sapiens with 4 samples.

Results

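The genes of the Wnt signalling pathway, from the secreted ligands to the nuclear factors, were followed in A549 cells treated with embelin. Genes were taken by their name in the scanner files: every WNT and FZD gene, DKK1 to DKK4, SFRP1 to SFRP5, WIF1, the receptors LRP5, LRP6, ROR1, ROR2 and RYK, the R-spondins RSPO1 to RSPO3 with LGR4, LGR5, LGR6, RNF43 and ZNRF3, the cytoplasmic genes AXIN1, AXIN2, APC, GSK3B, CTNNB1, DVL1, DVL2, DVL3, NKD1 and NKD2, the nuclear factors TCF7, TCF7L1, TCF7L2 and LEF1, and PORCN and NOTUM. This gave 67 genes among the 30970 gene names on the array, read by 112 probes. A549 is an established line of human lung adenocarcinoma cells. Embelin is a plant benzoquinone. The 2 control samples were labelled untreated (0 µM), and the 2 treated samples received 15 µM embelin for 4 h. Both groups had been moved to medium with 2% serum 12 h earlier, and the question was which pathways respond at a time when apoptosis begins. The labels do not say whether samples of 1 group came from separate cultures, so that p-values measure only the spread between these samples, which may be technical.

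Wnt ligands are lipid-modified secreted proteins that bind a Frizzled receptor together with LRP5 or LRP6. In the canonical branch this binding stops the destruction complex of Axin, APC and GSK3 from removing β-catenin, which then acts with TCF and LEF factors on target genes, while other receptors such as ROR1, ROR2 and RYK carry β-catenin-independent signals. RNF43 and ZNRF3 are ubiquitin ligases that take Frizzled receptors off the cell surface, R-spondins bound to LGR4, LGR5 or LGR6 remove these ligases, and RNF43, ZNRF3, AXIN2, NKD1, NOTUM and LGR5 are themselves classical targets of the pathway and form its feedback. In lung epithelium the pathway is known for its part in development and in the maintenance of alveolar progenitor cells.

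Each level below is a normalized log2 intensity of 1 probe of 60 bases, so that the probe defines what was measured. The first 30 bases of the probes on which the main comparisons rest are shown in the orientation of the files, because several of these genes were read by probes that differed in their result.
RNF43: ggcagaattacagctgagcggggacaacaa
AXIN2: ttttgtcttaaaggtcttgagggttgacca
FZD2: cacggtctacatgatcaaatacctcatgac
WNT5A: ctgtcttgcgtgatttgtatatttcactgg
LGR4, brightest probe: aatgtggcttctgttcatttcgtttaatta
LGR4, other probe: ggggcggcgggggacatcggagggcagcgg
ZNRF3, brightest probe: ctcaggaggaactcttacctggaaattggg
ZNRF3, other probe: actgctcacatacttatgtgctgctagtct
The second LGR4 probe stands out by its base composition, with 83.3% G and C against a median of 41.7% over all probes of the array.

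Promoter windows of 300 bases (250 before and 50 after the annotated start, RefSeq, GRCh38.p14) were found by symbol for 48 of the 67 genes. The windows of 3 genes with a lower mean signal in embelin and of DKK1 are shown to compare their content of CTTTGA, the shared core of TCF and LEF binding sites, searched on both strands and printed in capitals (TCAAAG on the other strand).
RNF43, chr17:58417485-58417784, minus strand: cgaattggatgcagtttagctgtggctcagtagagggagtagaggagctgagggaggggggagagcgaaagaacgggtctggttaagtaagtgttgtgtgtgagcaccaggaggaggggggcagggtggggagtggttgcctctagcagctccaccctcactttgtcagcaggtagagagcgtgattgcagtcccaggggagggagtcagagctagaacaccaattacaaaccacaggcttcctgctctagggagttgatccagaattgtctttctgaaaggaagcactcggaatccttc
LGR4, chr11:27472741-27473040, minus strand: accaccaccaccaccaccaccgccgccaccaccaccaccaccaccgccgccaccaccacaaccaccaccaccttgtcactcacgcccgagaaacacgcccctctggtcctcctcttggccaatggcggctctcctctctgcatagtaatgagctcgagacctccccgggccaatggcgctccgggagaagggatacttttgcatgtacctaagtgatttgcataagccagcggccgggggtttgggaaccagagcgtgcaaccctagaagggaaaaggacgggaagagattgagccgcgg
WNT5A, chr3:55487257-55487556, minus strand: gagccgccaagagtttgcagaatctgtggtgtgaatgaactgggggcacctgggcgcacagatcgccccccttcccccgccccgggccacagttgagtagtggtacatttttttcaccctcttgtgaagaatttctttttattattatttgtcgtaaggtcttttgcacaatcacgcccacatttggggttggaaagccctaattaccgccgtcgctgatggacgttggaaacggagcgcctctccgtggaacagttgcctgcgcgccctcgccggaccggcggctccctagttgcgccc
DKK1, chr10:52314031-52314330, plus strand: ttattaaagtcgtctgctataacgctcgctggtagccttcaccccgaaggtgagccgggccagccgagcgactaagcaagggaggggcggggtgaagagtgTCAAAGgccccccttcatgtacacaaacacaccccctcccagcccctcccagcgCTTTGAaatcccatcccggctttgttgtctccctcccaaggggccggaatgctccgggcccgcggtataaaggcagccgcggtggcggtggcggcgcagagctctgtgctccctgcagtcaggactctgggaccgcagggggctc
The letters were found in the DKK1 window only, 2 times, and in none of the other 47 windows of the pathway (2.08% of 48). Over all 27305 promoter windows 3578 (13.1%) held them, and the median G and C content was 70.8% in the pathway's windows and 58.3% in all windows. A match in letters is no binding site, and a missing match says only that these letters are not in the window. AXIN2, FZD2, FZD3, LRP6 and ZNRF3 had no entry.

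All 4 arrays lay on 1 slide, with the controls in places 4 and 1 and the embelin samples in places 2 and 3, so that place on the slide and treatment cannot be fully told apart. Between 50.3% and 66.7% of 50238 probes were well above background per array, the lower shares being those of control replicate 2 and embelin replicate 1. On embelin replicate 1, 2.37% of spots were over 8-fold brighter than the same spot on every other array, against 1.31% on control replicate 2 and at most 0.0660% on the other 2 arrays. All 12 epithelial and A549 markers examined were tested and 0 were called by limma (0 also at an unadjusted p under 0.05), with log2 differences from -0.56 to 0.05. The share over all genes at an unadjusted p alone was not taken. After adjustment the methods' t-test also called 0, but it called 0 of all genes. Of the 12 differences 11 were negative, against 56.1% of all genes. The groups did not overlap in 8 downwards (66.7%) and 1 upwards (8.33%), against 30.7% and 21.1% of all genes. Of 10 markers of lineages that should be absent, 8 were not detected well enough to be tested, while COL1A1 (log2 difference 1.30, adjusted p = 0.0546) and CD3E (1.25) were tested and not called. In bulk RNA, fewer cells with a transcript and less transcript per cell cannot be told apart.

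In A549 cells treated with embelin the ligase gene RNF43 and the receptor gene FZD2 fell, and none of the 67 genes taken by name was called higher. Of the 45 genes tested, 2 fell (4.44%) and 0 rose after adjustment over all genes by limma, against 0.561% and 1.25% of all 17649 genes tested (1.81% in either direction). At least 2-fold differences with an unadjusted p under 0.05 were found in 8 of the 45 downwards (17.8%), among them AXIN2, WNT5A, LGR4, FZD3, FZD4 and LRP6, and in 1 upwards (WNT1). WNT1 was tested only because an outlier spot on embelin replicate 1, whose value was left out, counted as well above background. FZD4 also rested on 1 embelin array, since its outlier spot on embelin replicate 1 was left out. With the deposited table, which kept that spot, the log2 difference of FZD4 was 1.37. Over all genes the shares were 3.99% and 4.27%. At that unadjusted level without the fold threshold 13 genes were lower and 7 higher. The share over all genes was not taken at this level, so these counts cannot be compared with the whole array. The methods' t-test called 0 in either direction after adjustment, as it did among all genes. Log2 differences (embelin minus control) were negative in 28 genes and positive in 17, with a median of -0.28, whereas 56.1% of all genes were negative and their median was -0.06. These are descriptions of a chosen list, since its genes are not replicates.

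**Figure D1:**
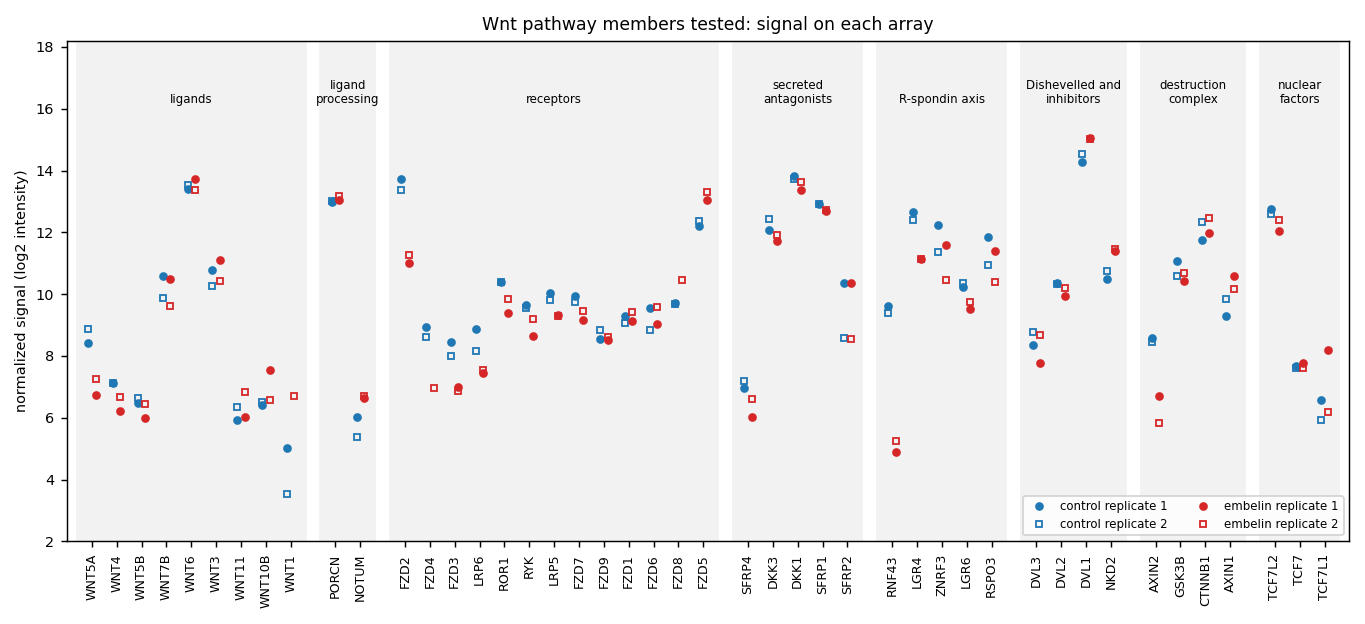
Normalized log2 intensity (y axis) of the 45 Wnt pathway genes tested, grouped by role (x axis), on each of the 4 arrays; each point is 1 array, circles replicate 1 and squares replicate 2. RNF43 lies at 9.62 and 9.38 in control and at 4.89 and 5.23 in embelin, while the 4 values of DKK1 run from 13.38 to 13.82.

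In 27 of the 42 genes that had a value on every array the groups did not overlap, lower with embelin in 20 (47.6%) and higher in 7 (16.7%). Among all 17298 such genes the groups were apart downwards in 30.7% and upwards in 21.1%. With 2 arrays against 2, an exact two-sided permutation test of a single gene cannot give a p below 0.333, so that no gene can be called on the order of its arrays alone.

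RNF43, the ligase that removes Frizzled receptors, had the largest difference of the 45 genes tested. Its single probe read 9.62 and 9.38 (log2) in control and 4.89 and 5.23 in embelin. The groups were more than 4 log2 units apart, and the spread within each was small (SD 0.17 and 0.24, n = 2). The fall was 21.7-fold (log2 difference -4.44, SE 0.21, 95% interval -5.02 to -3.86, limma adjusted p = 0.0204). Only 1 of the 2 embelin arrays measured RNF43 well above background, and the 4.89 of embelin replicate 1 lay below the lowest well measured signal of that array (5.97), so that the fold and its interval rest on a signal at the edge of detection. With normexp background correction the log2 difference was -2.87. RNF43 was no longer called with the replicate number as a block (adjusted p = 0.0669), nor with any 1 array left out, settings under which limma called 0 of all genes.

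ZNRF3, the closest relative of RNF43 with the same role, was read by 2 probes that differed. The brightest probe, which stands for the gene, gave 12.23 and 11.36 in control and 11.60 and 10.46 in embelin. The groups overlapped on it, and the arrays numbered 1 exceeded those numbered 2 in both groups. Its log2 difference was -0.77 (SE 0.52, adjusted p = 0.489). The other probe gave 9.69 and 9.39 in control and 7.72 and 8.21 in embelin, with no overlap and a log2 difference of -1.58 (SE 0.26, limma adjusted p = 0.0850 over probes). ZNRF3 was thus not called by either probe. It was chosen for description after its values were seen.

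LGR4, the R-spondin receptor expressed in many epithelia, read 12.67 and 12.41 in control and 11.13 and 11.14 in embelin. Both embelin arrays lay over 1 log2 unit below both controls. The difference of -1.41 (SE 0.18, 95% interval -1.90 to -0.91) stayed just above the threshold (adjusted p = 0.0546). Its other probe, the one rich in G and C shown above, gave 7.94 and 7.29 in control against 7.70 and 7.44 in embelin, which overlap (difference -0.04, SE 0.29). The difference for LGR4 therefore came from 1 of its 2 probes. Among the rest of this group, LGR6 had a difference of -0.65 (adjusted p = 0.171) and RSPO3, a secreted ligand of the LGR receptors, -0.50 (0.642). All 5 tested genes of the R-spondin axis had negative differences, with a median of -0.77, and 1 of them (RNF43) was called, where 56.1% of all genes were negative and 0.561% were called lower. RSPO1, RSPO2 and LGR5 were not tested, and LGR5, a stem cell marker and pathway target, was well above background on 0 of the 4 arrays.

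AXIN2, the scaffold of the destruction complex whose transcription is the usual read-out of β-catenin activity, read 8.58 and 8.46 in control and 6.71 and 5.84 in embelin. No embelin array reached the controls, but the embelin arrays differed from each other by 0.87. The log2 difference was -2.25 (SE 0.34, 95% interval -3.18 to -1.31), a 4.74-fold lower mean signal, and the adjusted p was 0.0688, so that AXIN2 was not called. Its other 2 probes were well above background on control replicate 1 only. They read 4.50 and 3.74, and 5.02 and 4.33, in control, and 4.00 and 3.06, and 3.82 and 3.82, in embelin. AXIN1, the constitutive relative of AXIN2 in the same complex, had a difference of 0.80 in the opposite direction (adjusted p = 0.249). It read 10.58 on embelin replicate 1 and 10.16 on embelin replicate 2. On embelin replicate 1, 21.6% of the 102 spots around it were over 8-fold brighter than on every other array. Its own pixels there were even (SD over mean 0.173), and the part of this neighbourhood in its value was not tested. CTNNB1, the gene of β-catenin, read 11.75 and 12.34 in control and 11.97 and 12.47 in embelin, which overlap (difference 0.18, SE 0.31, 95% interval -0.67 to 1.03). GSK3B, the kinase of the complex, gave -0.29 (adjusted p = 0.585). APC was well above background on 2 arrays, not both of 1 group, and was not tested.

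FZD2, a Frizzled receptor used by WNT5A among other ligands, read 13.73 and 13.37 in control and 10.99 and 11.27 in embelin. The groups lay over 2 log2 units apart on a probe well above background on every array. On embelin replicate 1 the FZD2 spot lay in a neighbourhood where 23.5% of 98 spots were over 8-fold brighter than on every other array, but its own pixels were even (SD over mean 0.0862) and its signal there was the lowest of the 4. FZD2 fell 5.34-fold (log2 difference -2.42, SE 0.22, 95% interval -3.02 to -1.81, adjusted p = 0.0368). With the replicate number as a block its limma adjusted p was 0.0860, a setting that called 0 of all genes. With 1 array left out its log2 difference lay between -2.60 and -2.24. The call of FZD2 depended on the alternative and held in 7 of 16.

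The other Frizzled genes did not move as a block. FZD3, known for its part in planar polarity and axon guidance, read 8.46 and 7.99 in control and 6.997 and 6.87 in embelin (difference -1.30, SE 0.23, adjusted p = 0.0865), and its other probe gave -0.79. FZD4, the Norrin receptor, read 8.93 and 8.60 in control and 6.97 on embelin replicate 2, while its spot on embelin replicate 1 was left out as an outlier (difference -1.79, SE 0.27, adjusted p = 0.0991). FZD5 pointed the other way, with 12.22 and 12.35 in control and 13.04 and 13.30 in embelin. The groups did not overlap for FZD5 (difference 0.89, SE 0.19, adjusted p = 0.111), and its other 2 probes gave 0.48 and 0.97. FZD8 read 9.73 and 9.68 in control and 10.45 on the 1 embelin array used (0.74, adjusted p = 0.231). FZD1, FZD6, FZD7 and FZD9 lay between -0.51 and 0.13 with adjusted p from 0.279 to 0.889. FZD4, FZD8 and these 4 were chosen after their values were seen.

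LRP6, the co-receptor that Wnt ligands bring together with Frizzled, read 8.87 and 8.15 in control and 7.45 and 7.53 in embelin, without overlap (difference -1.02, SE 0.30, adjusted p = 0.187). Its relative LRP5 gave -0.62 (SE 0.17, adjusted p = 0.173), and the β-catenin-independent receptors ROR1 and RYK gave -0.78 (0.176) and -0.66 (0.262). The other kept probes of ROR1 differed in sign (-0.48, 0.61 and 0.78). The 13 receptor genes tested had a median of -0.62, with 9 negative and 4 positive differences, 1 called (FZD2, 7.69%), and 4 at least 2-fold lower with an unadjusted p under 0.05 (30.8%). Over all genes 56.1% were negative, 1.81% were called and 3.99% were at least 2-fold lower at that p. FZD10 and ROR2 were not tested.

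**Figure D2:**
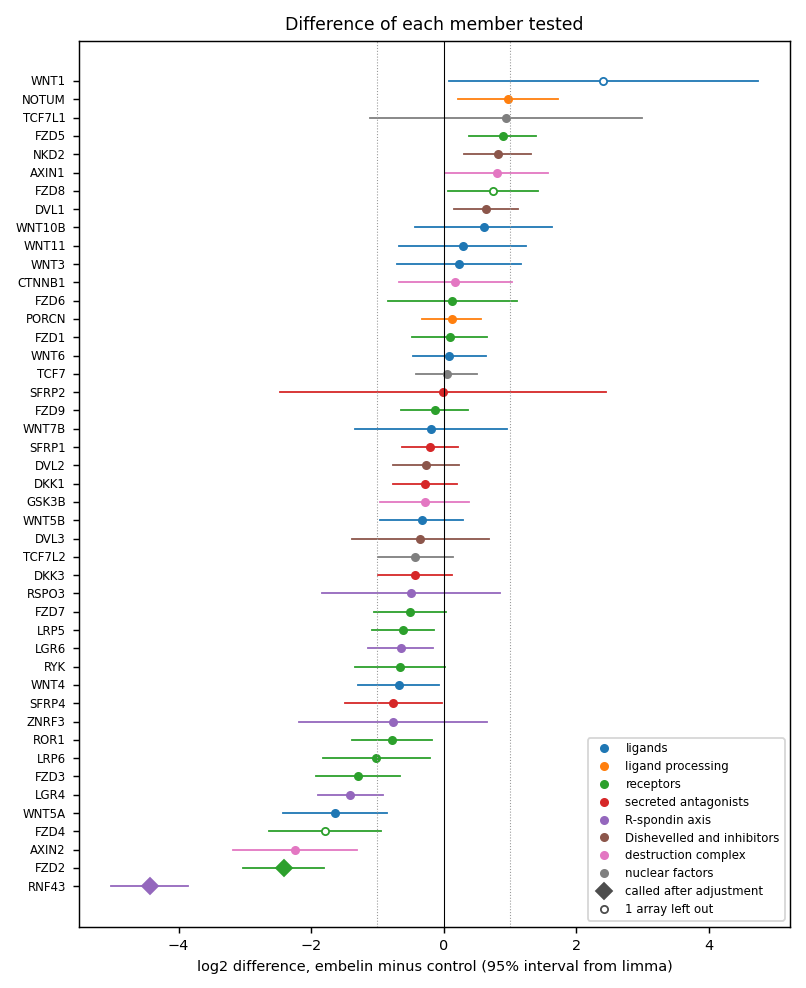
Log2 difference between embelin and control (x axis, embelin minus control) of the 45 genes tested (y axis, ordered by difference), with 95% intervals from limma. Diamonds are the 2 genes called after adjustment, open circles genes with 1 embelin array left out, and dotted lines 2-fold; RNF43 (-4.44) and FZD2 (-2.42) lie lowest, and the interval of WNT1 runs from 0.08 to 4.74.

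The ligands held no gene called after adjustment. Of the 19 WNT genes on the array 9 were tested, 5 with positive and 4 with negative differences and a median of 0.08. WNT5A, a ligand best known for β-catenin-independent signalling, read 8.41 and 8.86 in control and 6.73 and 7.25 in embelin. The groups did not overlap (difference -1.64, SE 0.29, 95% interval -2.43 to -0.86, a 3.13-fold lower mean, adjusted p = 0.0838). WNT4 gave -0.68 (adjusted p = 0.221). WNT6, by its brightest probe, read 13.41 and 13.53 in control and 13.72 and 13.38 in embelin, an overlap with a difference of 0.08 (95% interval -0.46 to 0.63), while its other probe gave -0.67. WNT3, WNT5B, WNT7B, WNT10B and WNT11 lay between -0.33 and 0.60 with adjusted p from 0.455 to 0.856. WNT1, chosen after its values were seen, read 5.02 and 3.54 in control and 6.69 on the 1 embelin array used (difference 2.41, SE 0.75, adjusted p = 0.247). Its control signals were near background, and of the 2 controls replicate 1 alone measured it well above background. It passed the filter only through its outlier spot on embelin replicate 1, so its upward difference is no evidence of a rise. The 10 ligand genes not tested were WNT2, WNT2B, WNT3A, WNT7A, WNT8A, WNT8B, WNT9A, WNT9B, WNT10A and WNT16.

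PORCN, the enzyme that attaches the lipid to Wnt ligands, read 12.98 and 13.00 in control and 13.05 and 13.16 in embelin, a difference of 0.12 within a 95% interval of -0.33 to 0.56. NOTUM, the secreted enzyme that removes this lipid and a feedback target, read 6.02 and 5.37 in control and 6.62 and 6.70 in embelin (0.96, adjusted p = 0.179), but 1 of its control signals was not well above background. The carrier WLS, also in the list of names, was written GPR177 in the files and so was not among the 67. Its log2 signals of 8.91 and 8.44 in control and 7.98 and 8.96 in embelin overlapped (difference -0.20, adjusted p = 0.837).

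The secreted antagonists held no called gene either (limma 0 of 5). After adjustment the methods' t-test gave 0 of 5, but it called 0 of all genes. SFRP4 alone had an unadjusted limma p under 0.05, but was well above background on 1 of its 2 embelin arrays. DKK1, which blocks LRP5 and LRP6 and is itself a target of β-catenin, read 13.82 and 13.74 in control and 13.38 and 13.62 in embelin. Its groups did not overlap, yet the difference was -0.28 (95% interval -0.77 to 0.20, adjusted p = 0.459). The other 4 tested were DKK3 (-0.43), SFRP1 (-0.21), SFRP2 (-0.01) and SFRP4 (-0.76), which gave the group a median of -0.28. DKK2, DKK4, SFRP5 and WIF1 were not tested.

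DVL1, a Dishevelled protein that relays the signal from Frizzled to the destruction complex, read 14.29 and 14.53 in control and 15.07 and 15.03 in embelin. The groups did not overlap, with a difference of 0.64 (SE 0.18, adjusted p = 0.173) and 0.70 on its other probe. DVL2 and DVL3 gave -0.27 and -0.35. NKD2, an inhibitor of Dishevelled chosen after its values were seen, gave 0.81 (SE 0.19, adjusted p = 0.126) on its brightest probe and -0.19 on the other. NKD1, the related feedback target, was well above background on 0 of 4 arrays.

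Among the nuclear factors, TCF7L2, the TCF factor best known from intestinal and metabolic tissue, read 12.74 and 12.59 in control and 12.06 and 12.41 in embelin (difference -0.43, SE 0.21, adjusted p = 0.355). Its other kept probe, near background, gave 0.80. TCF7, itself a target of the pathway, gave 0.05 (adjusted p = 0.920). TCF7L1 gave 0.94 with an SE of 0.75, since its embelin arrays read 8.20 and 6.19. LEF1 was well above background on 0 of 4 arrays.

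**Figure D3:**
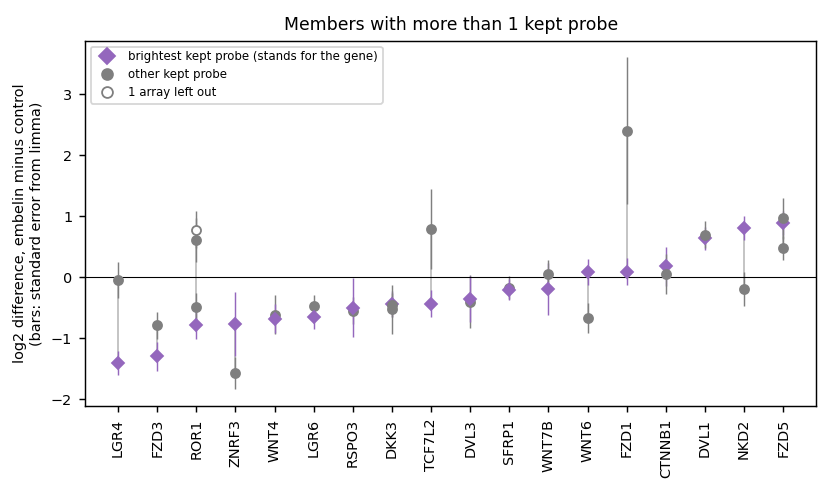
Log2 difference (y axis, embelin minus control) of each kept probe of the 18 genes with more than 1 kept probe (x axis), with bars of 1 standard error from limma; diamonds are the brightest probe. The probes of FZD5 and DVL1 lie together above 0, those of ZNRF3 at -0.77 and -1.58, and those of LGR4 at -1.41 and -0.04.

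Probes of 1 gene are separate readings of the same RNA samples and not replicates of the treatment. Of the 18 genes with more than 1 kept probe, 5 had differences of both signs: NKD2, ROR1, TCF7L2, WNT6 and WNT7B. The 4 kept probes of ROR1 gave -0.78, -0.48, 0.61 and 0.78. The probe at 0.78 passed the filter only through a spot on embelin replicate 1 that was marked as an outlier and left out. The probe at 0.61 was well above background on all 4 arrays and had no outlier spot.

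Several spots of the pathway stood apart on embelin replicate 1. Of its 112 spots of pathway genes, 5 were marked as outliers by the scanner software, against 0 on each of the other 3 arrays. The FZD4 spot had intensities of 523 and 345 in control, 9856 on embelin replicate 1 and 137 on embelin replicate 2, and its pixels were uneven (SD over mean 0.820). Around it 46.1% of 102 neighbouring spots were over 8-fold brighter than on every other array. The WNT1 spot read 34.7 and 10.4 in control and 2326 and 113 in embelin, with 28.9% of 97 neighbours as bright. The FZD8 spot read 906 and 730 in control and 4924 and 1527 in embelin. With the deposited table, in which such spots were not removed, the log2 difference of FZD4 was 1.37 in place of -1.79. An FZD1 probe on the same array, 346 against 15.0 to 36.2 elsewhere, was not marked as an outlier and gave a log2 difference of 2.40 (SE 1.20), whereas the brightest FZD1 probe gave 0.09. The part that such neighbourhoods had in other values was not tested.

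**Figure D4:**
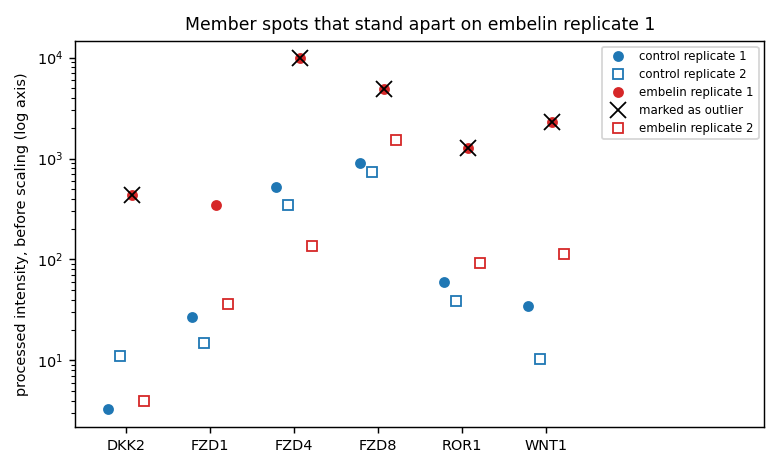
Processed intensity before scaling (log y axis) of 6 spots of pathway genes (x axis) on each array; crosses mark the 5 spots that the scanner software called outliers, which were left out. The spots of embelin replicate 1 lie above those of the other 3 arrays for all 6 genes, for FZD4 at 9856 against 137 to 523.

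Of the 22 genes not tested, 9 had no probe well above background on any array, 7 on 1 array and 6 on 2 arrays. Among 12 direct targets listed as a read-out of β-catenin activity, 6 could be tested, with a median of -0.36. AXIN2, RNF43 and ZNRF3 had negative differences, while TCF7, NOTUM and SP5 had positive ones, SP5 with 6.49 and 5.96 in control and 8.80 and 6.99 in embelin (adjusted p = 0.290). The targets LGR5, LEF1, NKD1, TNFRSF19, APCDD1 and ASCL2 were not tested. NOTUM and SP5 passed the filter only through the embelin arrays, and RNF43 only through the control arrays. The filter thus favoured the direction each of them showed. The read-out held 1 called gene, RNF43, and the mix of directions among its tested genes is a description only.

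A further 66 genes of the pathway that the rule did not take were listed, and 53 were tested. Of these, 1 rose and 1 fell after adjustment, 35 differences were negative and 18 positive, and the median was -0.18. The share called was 3.77%, against 1.81% of all genes (1.25% higher and 0.561% lower), of which 56.1% were negative. BAMBI, a pseudoreceptor of the TGF-β family that is also a β-catenin target, read 14.80 and 14.78 in control and 13.18 and 13.12 in embelin, a 3.11-fold fall (log2 difference -1.64, SE 0.16, adjusted p = 0.0380). DRAXIN, a secreted axon guidance protein and Wnt antagonist, read 3.66 and 3.53 in control, not well above background on either array, and 8.01 and 8.06 in embelin. DRAXIN was at least 9.16-fold higher, the bound being taken against the lowest well measured signal of each control array (3.83 and 5.85). It passed the filter only through the embelin arrays. Its limma adjusted p of 0.0204 rests on control values below those lowest signals, so it does not test the bound, and its call above has the same limit. A difference of at least 2-fold with an unadjusted p under 0.05 was found in 8 genes downwards (15.1%), counting BAMBI, and in 3 upwards (5.66%), counting DRAXIN, against 3.99% and 4.27% of all genes. The lower ones included the co-repressor TLE4 (-1.72), the APC-binding AMER1 (-1.67) and the planar polarity genes PRICKLE1 (-1.78) and PRICKLE2 (-1.85), with adjusted p from 0.0528 to 0.0851. The higher ones were SOX9 (1.17, adjusted p = 0.0703) and PPARD (1.27, 0.0803). Of the growth targets, MYC gave -0.31 (adjusted p = 0.613) and CCND1, the gene of cyclin D1, -0.72 (0.186). All genes of this list named with values, other than BAMBI and DRAXIN, were chosen after their values were seen.

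**Figure D5:**
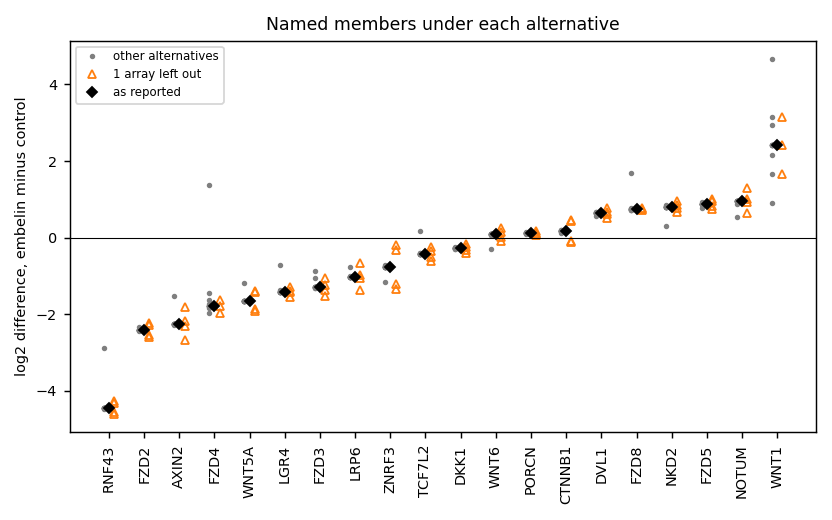
Log2 difference (y axis, embelin minus control) of 20 genes (x axis) as reported (diamonds), with 1 array left out (triangles) and under the other processing alternatives (dots). RNF43 lies between -4.61 and -2.87, FZD2 between -2.60 and -2.24 and AXIN2 between -2.68 and -1.52, and the dot of FZD4 above 0 (1.37) is the deposited table.

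RNF43, FZD2, AXIN2, WNT5A, LGR4, FZD3 and LRP6 had negative differences under every alternative in which they were tested. Their calls depended on the alternative. FZD2 passed an adjusted p of 0.05 in 7 of 16 alternatives, RNF43 in 6 of 15, LGR4 in 4 of 16, AXIN2 and WNT5A in 2 of 16 each, FZD3 in 1 of 16 and LRP6 in 0 of 16. The 7 for FZD2 were all the alternatives in which any gene of the array was called. The 6 for RNF43 were all of those that tested it. With no filter, the methods' t-test, the replicate block, slide position or the background block, 0 of all genes were called.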

How the data were processed

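RNA of each sample was labelled with Cy3 and hybridized to 1 array of a custom whole-genome human slide. The authors deposited spot intensities from Feature Extraction (10.7.3.1 per the file headers), background-subtracted and detrended but not normalized between arrays, and a table of probe values on the same scale. The deposited intensity values were scaled here to equal 75th percentiles (675, the shift named in the methods), set to at least 1 and log2-transformed; the authors deposited no log2 values. Spots marked as outliers were left out and spots of a probe averaged. A probe was used (26146 in all) if both arrays of a group had it well above background, and the brightest kept probe stood for a gene. Spots left out as outliers still counted for this filter. Embelin was compared with control by limma 3.58.1 in R 4.3.3, with Benjamini-Hochberg adjustment over 17649 genes, and the fit was tested on simulated data. The number of arrays limits the precision (median pooled SD 0.211 in log2).

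The genes, lists and tests were chosen with earlier results of these data known. Genes given in full were RNF43 and AXIN2, those called, those at least 2-fold different with an unadjusted p under 0.05 and no overlap, and the gene with the highest mean signal in each role group, 14 in all, with disagreeing probes. The text marks many of the others as chosen with their values in view, or gives them as group values. Those given singly without a mark, such as NOTUM, AXIN1, GSK3B and WNT4, should be read as chosen in the same way. Alternatives were normexp (offset 50), quantile normalization, the deposited table, no filter or a filter on all 4 arrays, the mean over probes, the methods' t-test (Student), eBayes with trend and robust, a block for the replicate number, slide position as a covariate and leaving out each array. A block for array background and leaving out spots with uneven pixels (SD over 0.5 of the mean) were added after the data were seen. Probe and promoter sequences came from the files and from RefSeq, and no probe coordinates were used.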

Additional observations from a re-analysis of the deposited data

How the results depend on the processing

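The count of pathway genes called lower (2) was 6 with the filter on all 4 arrays, where RNF43 was not tested and 345 of all 15542 genes were called lower. With trend and robust it was 6, against 495 of all 17649 genes, and 1 was called higher (FZD5), against 566 of all. It was 0 with no filter, the methods' t-test, the replicate block, slide position or the background block, each of which called 0 of all genes. Genes at least 2-fold higher with an unadjusted p under 0.05 (1) were 0 with normexp, quantile normalization, the deposited table, the filter on all 4 arrays, the methods' t-test, and trend and robust, and 2 to 4 with 1 array left out (4 without embelin replicate 1, 3 without embelin replicate 2, 2 without either control). The lower ones (8) ranged from 7 to 8 with 1 array left out. Other pathway genes called higher and lower (1 and 1) were 3 and 6 with normexp (454 and 273 of all 17649 genes). They were 2 and 6 with the filter on all 4 arrays (419 and 345 of all 15542), and 4 and 6 with trend and robust (566 and 495 of all 17649). With uneven spots left out they were 1 and 2 (277 and 143 of all 17643). They were 0 and 0 with no filter, the methods' t-test, the replicate block, slide position and the background block, each of which called 0 of all genes. The median difference (-0.28) was -0.0136 with no filter, when all 67 genes were tested, and -0.29 to -0.14 with 1 array left out. Reversed were FZD4 with the deposited table (1.37), TCF7L2 (0.18) and WNT6 (-0.29) with the mean over probes, WNT6 without embelin replicate 1 (-0.0866, in a leave-one-out range of -0.0866 to 0.253), and CTNNB1 without control replicate 1 or embelin replicate 2 (-0.117 and -0.0765, in a range of -0.117 to 0.471). The cause was not tested for any of these.

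The labels do not say whether same-numbered arrays shared anything besides a number. With 2 pairs, their deviations from the group means correlated at r = 0.175 over 17298 genes. The replicate block called 0 genes (320 without it), with a limma adjusted p of 0.0669 for RNF43. A lone array left in a group was assumed by limma to vary like the other group's arrays. Signal over background limits RNF43, WNT1, NOTUM, SFRP4, WNT5B and TCF7L1, each well above background on 3 of the 4 arrays, and the 22 genes not tested. For WNT1 the 3 arrays include embelin replicate 1, where its spot was an outlier and was left out.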

Other observations

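On their brightest probe, some pathway genes differed by replicate number in both groups. In 6 of the 45 tested (13.3%), RSPO3, SFRP2, TCF7L1, WNT3, WNT7B and ZNRF3, the array numbered 1 exceeded the array numbered 2 by at least 0.5 in log2 in both groups, against 4.65% of all genes tested. The antagonist SFRP2 was the clearest, with 10.36 and 8.57 in control and 10.37 and 8.54 in embelin, and a difference between groups of -0.01. In 1 gene, CTNNB1 (2.22%), the arrays numbered 2 were the higher by that margin, against 2.96% of all. A second kept probe existed for 3 of the 6 and did not repeat the order in both groups: ZNRF3 read 7.72 and 8.21 in embelin, RSPO3 9.40 and 9.60 in embelin, and WNT7B 6.23 and 6.61 in control (arrays 1 and 2). The second probe of CTNNB1 kept its order, with 8.17 and 8.79 in control and 8.25 and 8.82 in embelin. These genes were chosen after their values were seen, and the labels do not say what the numbers stand for.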
